A study of Mus musculus with 48 samples.

Results

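White fat of male mice without a working Cth gene was compared with white fat of wild-type mice while both ate the control diet. Cth encodes cystathionine gamma-lyase, the enzyme that releases cysteine from cystathionine in the last step of transsulfuration. The comparison takes 16 of the 48 libraries of the study. They are 4 libraries of subcutaneous fat (SFAT) and 4 of visceral fat (EFAT) from Cth-/- mice, and 4 of each depot from Cth+/+ mice. All mice had eaten the control diet for 6 days, so cystine was still supplied in the food of both genotypes. The other libraries hold mice of both genotypes on a diet deficient in cystine, and brown fat (BAT) on both diets. The labels do not say how the Cth allele was made, how old the mice were or at what time of day tissue was taken. A library is named here by its depot, its genotype and the number in its label, 12 to 15 in Cth-/- and 1 to 4 in Cth+/+. The labels do not say whether libraries are separate mice. Nor do they say whether SFAT and EFAT libraries with the same number come from 1 mouse, though all depots use and skip the same numbers. A p-value measures only how these libraries vary.

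Transsulfuration turns the sulfur of dietary methionine into cysteine, which cells use for protein, glutathione, taurine and hydrogen sulfide. Many of the genes described here belong to another system, the circadian clock. In its loop, BMAL1 (gene Arntl) pairs with CLOCK or NPAS2 and switches on Per, Cry, Nr1d1, Nr1d2, Ciart and Dbp through E-boxes. PER and CRY proteins then repress that pair, the REV-ERB proteins (Nr1d1, Nr1d2) repress Arntl, Npas2, Nfil3 and Cry1, and ROR proteins such as RORA compete with them at the same sites. DBP, TEF and HLF activate genes with a D-box, and NFIL3 represses them. White fat is known to run this clock, and the levels of these transcripts swing over the day in wild-type mice.

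Cth reads followed the labels in every library. The Cth-/- libraries held 3, 1, 1 and 1 reads in SFAT (replicates 12 to 15) and 2, 6, 1 and 1 in EFAT. The Cth+/+ libraries held 202, 332, 184 and 186 reads in SFAT (replicates 1 to 4) and 252, 260, 389 and 266 in EFAT. Every Cth+/+ library therefore lay far above every Cth-/- library. Cth (chromosome 3, 157894248 to 157925077, minus strand, GRCm38) had a log2 fold change of -7.40 ± 0.28 (SE) over both depots, with an adjusted p of 1.3e-10 by edgeR's quasi-likelihood test with Benjamini-Hochberg adjustment. Folds below are Cth-/- over Cth+/+ on the log2 scale with their SE, and each adjusted p comes from this test. A gene was said to rise or fall when its adjusted p was under 0.05.

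The libraries held 30.1 to 39 M expected counts in Cth-/- SFAT, against 16.2 to 32.9 M in Cth+/+ SFAT (M for mega). EFAT libraries held 27.5 to 36.1 M in Cth-/- and 25.1 to 26.6 M in Cth+/+. Levels are CPM, counts relative to the library's scaled total, and rank libraries for 1 gene but not genes of different length. The 18 adipocyte identity genes summed to 41100 to 52900 CPM in Cth-/- SFAT, against 47100 to 55400 CPM in Cth+/+ SFAT. The 8 mesothelial markers, typical of visceral fat, summed to 213 to 387 CPM in Cth-/- EFAT and 150 to 317 CPM in Cth+/+ EFAT, against 4.02 to 14.2 CPM over all SFAT libraries. Among the Cth-/- libraries, replicates 12 and 14 differed least, with a chi-square per degree of freedom of 22.4 in SFAT and 24.5 in EFAT. Replicates 13 and 15 came next, at 45.4 and 36.3, and pairs across these ran from 54.6 to 178. Reads of a pseudogene split the libraries into a pair of sets, which were unequal in EFAT: 3 of 4 Cth-/- libraries and 1 of 4 Cth+/+ libraries were in set A. The split was not clean. EFAT Cth+/+ replicate 2 was in set B on 3 reads, and SFAT Cth-/- replicate 15 in set A on 2. The other set B libraries held 11 to 148 such reads and the other set A libraries 0. In bulk tissue, fewer cells of a type and less RNA per cell cannot be told apart.

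With the depots fitted together, 396 of 17219 genes differed between the genotypes, or 2.30% of the genes tested. Of these, 229 were higher (1.33%) and 167 lower (0.970%) in Cth-/- fat. An unadjusted p under 0.05 was found for 3354 of the 17219 genes. The alternative test DESeq2 called 1175 of 17219, 638 higher and 537 lower. Such counts in the gene lists below are to be read beside these. Most differences were small: the median absolute log2 fold change of the 396 was 0.50, 58 genes exceeded 1 and 197 were under 0.5. The count depended on single replicate numbers. It was 105 without Cth+/+ replicate 1, 109 without Cth+/+ replicate 2, 215 without Cth+/+ replicate 4, 124 without Cth-/- replicate 13 and 160 without Cth-/- replicate 15, against 583 at most, without Cth-/- replicate 12. If a number stands for 1 mouse, the 16 libraries are not independent. With the number as a block limma voom called 152 genes, and with counts summed by number edgeR called 11.

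Each depot alone gave few genes. In SFAT 17 of 16555 genes passed (0.103%), 7 higher (0.0423%) and 10 lower (0.0604%) in Cth-/- fat. In EFAT 8 of 17248 passed (0.0464%), 3 higher (0.0174%) and 5 lower (0.0290%). The 7 genes past the test in both depots were Cth, Dbp, Tef, Arntl, Cry1, Dtx4 and Osgin1, all in the same direction in both. They are 41.2% of the SFAT genes and 87.5% of the EFAT genes. The SFAT count was 11 without Cth+/+ replicate 1 and 11 without Cth-/- replicate 14. The EFAT count was 2 without Cth+/+ replicate 1, Cth-/- replicate 13 or Cth-/- replicate 15, 3 without Cth+/+ replicate 3 or Cth-/- replicate 14, and 5 without Cth+/+ replicate 2 or Cth-/- replicate 12. Cth and Arntl remained in all 8 of these EFAT fits.

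No gene passed the test of the difference between the depots (0 of 17219, 0.00%), with 473 genes at an unadjusted p under 0.05. DESeq2 called 2 genes for the same difference, Lrrc8c (log2 difference SFAT minus EFAT 0.54 ± 0.12, adjusted p 0.0407) and the pseudogene Rpl21-ps15, whose estimate of 45.12 lies far outside the range of any other gene named here. Of the 396 genes, 395 were tested in both depots, and all 395 had the same sign in both, which the fit of both depots together partly fixes. The libraries of the genotypes did not overlap in either depot, in 1 direction, for 182 of the 396, against 1.24% of all 17219 genes. The 396 were picked by a test on these same libraries, which partly fixes that share too. In SFAT alone the libraries of 8.54% of all genes did not overlap, and in EFAT alone those of 5.16%. A gene missing from the EFAT list is therefore not shown to respond differently there.

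**Figure D1:**
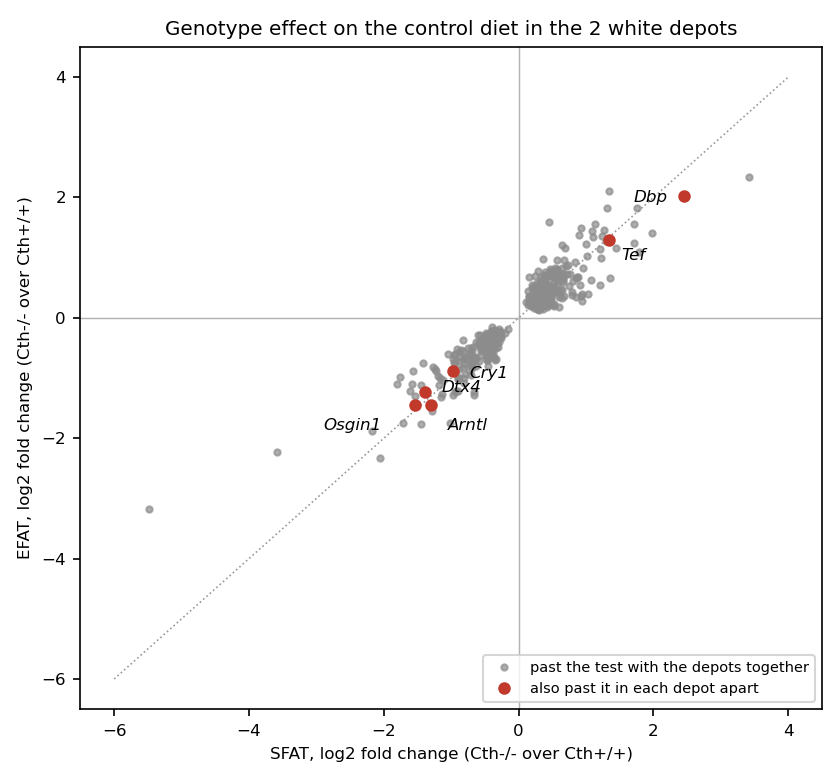
Log2 fold change of Cth-/- over Cth+/+ on the control diet in SFAT (x axis) and EFAT (y axis), 1 point a gene, for the 394 genes past the test over both depots and tested in each, Cth left out. The dotted line marks equal change, and the 6 red points (Dbp, Tef, Cry1, Dtx4, Osgin1, Arntl) also passed in each depot alone.

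Many clock genes differed between the genotypes. Of 16 core clock genes tested over both depots, 6 were higher and 4 lower in Cth-/- fat, against 2.30% of all genes called, and the median of the list was 0.28, against 0.01 over all genes. The higher genes were Per2, Per3, Nr1d1, Nr1d2, Ciart and Rora, and the lower ones Arntl, Npas2, Cry1 and Nfil3. Of 15 clock output genes, Dbp, Tef and Herpud1 were higher and Leo1 was lower, against 1.33% and 0.970% of all genes. In SFAT alone 3 core genes were higher (Per2, Per3, Nr1d2) and 3 lower (Arntl, Npas2, Cry1), and in EFAT alone 2 were lower (Arntl, Cry1). The labels give neither a time of collection nor whether it was the same in both genotypes. A difference in collection time, a shift of the rhythm and a change of its level therefore cannot be told apart for any clock gene. For genes outside the clock lists, other than Cth, a difference in collection time likewise cannot be told apart from an effect of genotype.

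Promoters of the clock genes that changed were read to show which of them carry the letters of the clock's own binding motifs. RefSeq gives a promoter, 250 bases before to 50 bases after a start, for 13 of these 14 genes (GRCm38.p6). Both strands were searched for the E-box CACGTG, the D-box TTATGTAA or TTACGTAA, and the REV-ERB and ROR element (RORE) TAGGTCA or TGGGTCA. The E-box was found in Ciart, Tef and Cry1, the D-box in Per3, and the RORE in Arntl, Nfil3 and Leo1. Of all 32817 promoters, 7.15% hold this E-box, 1.05% the D-box and 6.46% the RORE. Capitals mark the motif, each run is read 5′ to 3′ on the gene's strand, and a match describes letters only. Ciart lies at chr3:95882255-95882356 (minus strand), Tef at chr15:81802534-81802563 (plus strand), Cry1 at chr10:85185097-85185126 (minus strand), Per3 at chr4:151044804-151044882 (minus strand) and Nfil3 at chr13:52981040-52981063 (minus strand, with TAGGTCA on the opposite strand).
Ciart: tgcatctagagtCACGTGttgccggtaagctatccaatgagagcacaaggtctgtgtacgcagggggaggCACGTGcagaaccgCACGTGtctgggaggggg
Tef: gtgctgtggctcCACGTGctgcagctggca
Cry1: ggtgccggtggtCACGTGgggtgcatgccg
Per3: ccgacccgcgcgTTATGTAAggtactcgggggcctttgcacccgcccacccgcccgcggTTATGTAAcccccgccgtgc
Nfil3: ggcgctcggaacTGACCTActaac
Ciart carries 3 E-boxes in this stretch and Per3 carries the D-box letters 2 times. The E-box genes did not move together: Ciart and Tef were higher and Cry1 was lower in Cth-/- fat.

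Dbp, the PAR bZIP factor that carries clock timing to its targets, showed the largest rise of any gene that passed over both depots with a mean of at least 1 CPM. Its levels were 63.6, 41.8, 68.4 and 43.3 CPM in Cth-/- SFAT, against 9.44, 10.2, 10.3 and 9.49 CPM in Cth+/+ SFAT. In EFAT they were 33.4, 39.6, 39.0 and 42.8 CPM in Cth-/- and 11.7, 3.90, 8.93 and 12.8 CPM in Cth+/+. Every Cth-/- library lay above every Cth+/+ library of its depot. The log2 fold change was 2.25 ± 0.19 over both depots (adjusted p 6.7e-06), 2.45 ± 0.18 in SFAT and 2.03 ± 0.29 in EFAT. The EFAT call (adjusted p 0.018) was lost without Cth+/+ replicate 1 or 3 or Cth-/- replicate 13, 14 or 15 (0.0559 to 0.0923). Dbp lies on chromosome 7 (45705088 to 45710203, plus strand).

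Tef, a second PAR bZIP activator, averaged 170 ± 17.1 CPM in Cth-/- SFAT and 67.2 ± 9.16 CPM in Cth+/+ SFAT (SD, n = 4 each). In EFAT it averaged 161 ± 21.8 CPM in Cth-/- and 64.9 ± 15.5 CPM in Cth+/+. The lowest Cth-/- library, at 135 CPM, lay above the highest Cth+/+ library, at 80.0 CPM. Tef rose by 1.33 ± 0.11 over both depots (adjusted p 5.8e-06). In EFAT alone its adjusted p of 0.044 did not survive leaving out any 1 library, with values of 0.0745 to 0.226. Hlf, the third member of the family, had an estimate of 0.68 ± 0.23 with an adjusted p of 0.12.

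Of the repressors of the negative limb, Per2, Per3 and Ciart rose and Cry1 fell. Per2 measured 23.7, 17.1, 25.6 and 14.4 CPM in Cth-/- SFAT, against 5.21, 6.77, 8.77 and 3.59 CPM in Cth+/+ SFAT. Its EFAT levels were 21.8, 32.3, 22.1 and 29.6 CPM in Cth-/-, against 9.96, 5.45, 14.4 and 14.2 CPM in Cth+/+. The genotypes did not overlap in either depot, and Per2 rose by 1.49 ± 0.22 (adjusted p 0.0024). In SFAT alone its adjusted p was 0.021, and it exceeded 0.05 without Cth+/+ replicate 1, 2 or 4 or Cth-/- replicate 12 or 14, with values of 0.0685 to 0.126.

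Per3 averaged 54.1 ± 3.38 CPM in Cth-/- SFAT and 21.9 ± 3.37 CPM in Cth+/+ SFAT, with 56.1 ± 18.1 CPM in Cth-/- EFAT and 22.8 ± 8.16 CPM in Cth+/+ EFAT (SD, n = 4 each). It rose by 1.30 ± 0.18 (adjusted p 0.0018). Per1, which also answers to glucocorticoids, had an estimate of 0.44 with an adjusted p of 0.21, and Cry2 one of 0.14 with an adjusted p of 0.15. Ciart, a repressor that binds BMAL1 and CLOCK, was low: 3.25, 1.31, 3.06 and 0.513 CPM in Cth-/- SFAT, against 0.186, 0.648, 0.617 and 0.527 CPM in Cth+/+ SFAT. Cth-/- replicate 15 lay within the range of Cth+/+ SFAT, while the groups did not overlap in EFAT. Ciart rose by 1.70 ± 0.37 (adjusted p 0.024), a call lost without replicate 1, 2, 4, 12 or 13 (0.0568 to 0.117).

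The REV-ERB genes were higher in both depots. Nr1d2 measured 127, 111, 124 and 122 CPM in Cth-/- SFAT, against 49.9, 55.0, 40.0 and 65.0 CPM in Cth+/+ SFAT. In EFAT it measured 80.2, 98.7, 84.5 and 107 CPM in Cth-/-, against 38.4, 26.7, 41.3 and 60.0 CPM in Cth+/+. Nr1d2 rose by 1.18 ± 0.13 (adjusted p 0.00031). Nr1d1 averaged 230 ± 68 CPM in Cth-/- SFAT and 114 ± 16.2 CPM in Cth+/+ SFAT, and 221 ± 23.6 CPM in Cth-/- EFAT against 93.9 ± 31.4 CPM in Cth+/+ EFAT. It rose by 1.12 ± 0.16 (adjusted p 0.002), and its groups did not overlap in either depot. With counts summed by number Nr1d1 did not pass (adjusted p 0.122). Rora, an activator at the same sites, rose by 0.42 ± 0.08 (adjusted p 0.014), which was lost without Cth+/+ replicate 1 or 2 (0.0521 to 0.0828).

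Of the activators, Arntl and Npas2 fell, while Clock did not pass and Rora rose. Arntl measured 12.1, 16.8, 9.55 and 15.2 CPM in Cth-/- SFAT, against 31.5, 30.9, 36.1 and 32.9 CPM in Cth+/+ SFAT. EFAT levels of Arntl were 14.4, 11.1, 12.6 and 13.1 CPM in Cth-/-, against 34.2, 37.2, 34.3 and 32.4 CPM in Cth+/+. All 8 Cth-/- libraries lay under all 8 Cth+/+ libraries, and the depots differed little. Arntl fell by 1.36 ± 0.10 on the log2 scale (adjusted p 1.2e-06), and it passed in SFAT (-1.30 ± 0.17) and in EFAT (-1.44 ± 0.11) whichever library was left out.

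Npas2, the partner that can stand in for CLOCK, averaged 4.18 ± 0.853 CPM in Cth-/- SFAT and 12.8 ± 3.17 CPM in Cth+/+ SFAT (SD, n = 4 each). In EFAT it averaged 4.61 ± 1.67 CPM in Cth-/- and 10.7 ± 2.00 CPM in Cth+/+. It fell by 1.41 ± 0.18 over both depots (adjusted p 0.0012), but not with counts summed by number (adjusted p 0.0907). Clock itself averaged 127 ± 8.68 CPM in Cth-/- SFAT and 154 ± 18.8 CPM in Cth+/+ SFAT, and its estimate of -0.25 had an adjusted p of 0.10.

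Cry1, the repressor that peaks late in the cycle, was lower, unlike Per2 and Per3. It measured 5.25, 5.11, 4.99 and 4.91 CPM in Cth-/- SFAT, against 9.93, 11.8, 7.62 and 10.2 CPM in Cth+/+ SFAT. The EFAT libraries held 7.12, 7.23, 6.01 and 7.28 CPM in Cth-/-, against 11.3, 13.3, 14.2 and 12.1 CPM in Cth+/+. The genotypes did not overlap, and Cry1 fell by 0.92 ± 0.09 over both depots (adjusted p 3.6e-05). Its calls in the depots alone were weak: the adjusted p was 0.036 in SFAT and exceeded 0.05 unless Cth+/+ replicate 3 was the library left out (0.102 to 0.178), and 0.028 in EFAT, where it exceeded 0.05 whichever library was left out (0.0703 to 0.138).

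Nfil3, the repressor at D-boxes, measured 7.81, 6.70, 6.55 and 6.69 CPM in Cth-/- SFAT, against 18.7, 16.7, 16.1 and 10.4 CPM in Cth+/+ SFAT. In EFAT the genotypes overlapped, with 5.35 to 12.4 CPM in Cth-/- and 10.4 to 23.1 CPM in Cth+/+. Nfil3 fell by 1.07 ± 0.20 (adjusted p 0.0099, and 0.0511 to 0.0539 without Cth+/+ replicate 1 or 2). Leo1, a subunit of the PAF1 elongation complex, fell by 0.65 ± 0.11, but not with counts summed by number (adjusted p 0.208). Herpud1, a protein of endoplasmic reticulum quality control, rose by 0.34 ± 0.07, with an adjusted p of 0.02 that was 0.0843 to 0.12 without replicate 1, 2, 13 or 15. The basic helix-loop-helix repressors Bhlhe40 and Bhlhe41 had estimates of -0.36 and 0.53 and did not pass, nor did the output gene Usp2 at 0.18.

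**Figure D2:**
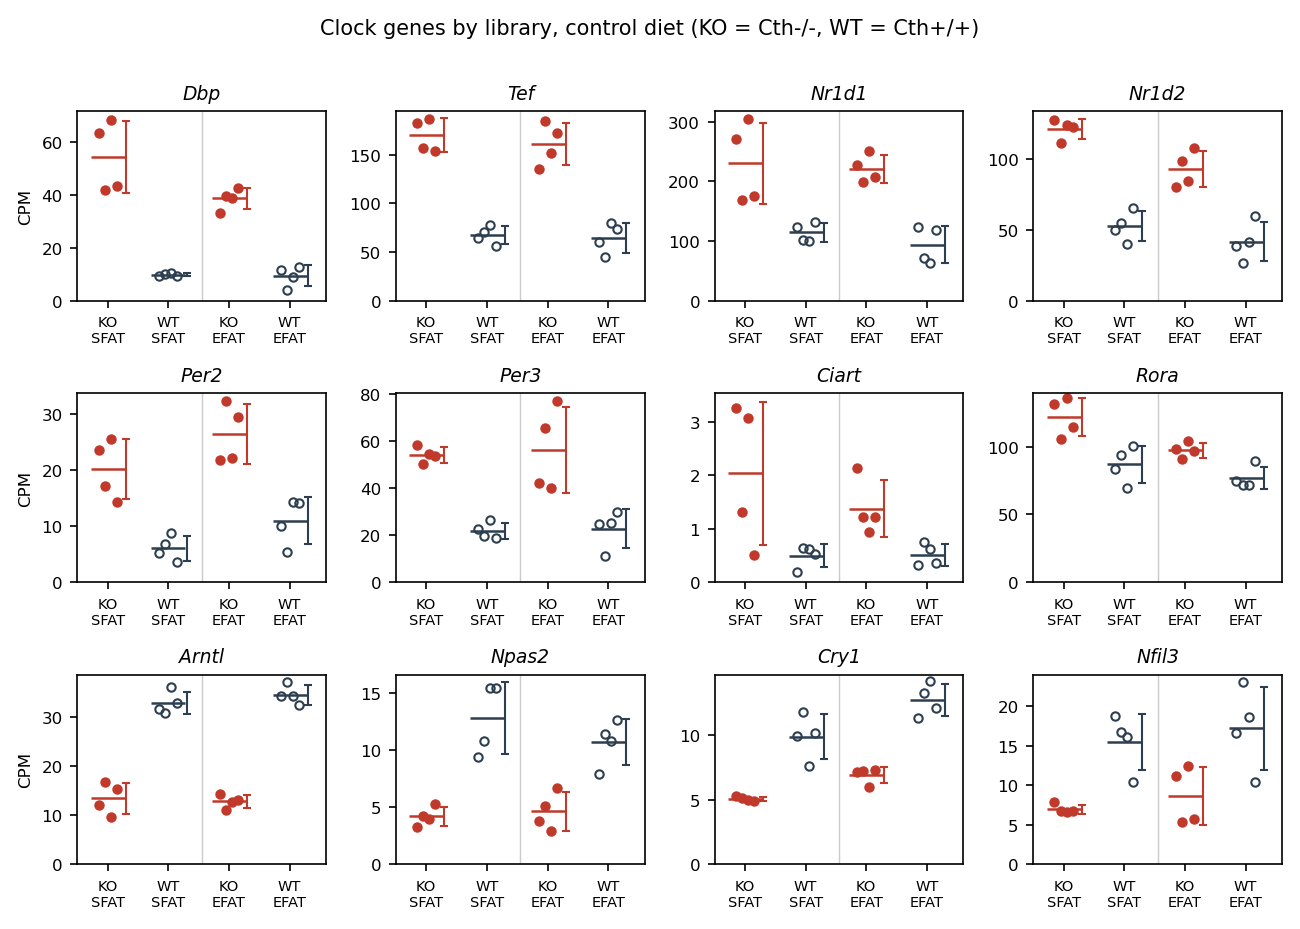
Levels of 12 clock genes in CPM (linear y axes) in each control-diet library of SFAT and EFAT, with Cth-/- as filled red points left of Cth+/+ as open dark points. Lines are means and bars SD over 4 libraries, and for Dbp, Tef, Nr1d1, Nr1d2, Per2, Per3 and Rora every Cth-/- point lies above the Cth+/+ points of its depot, while for Arntl, Npas2 and Cry1 every one lies below.

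Dbp, Tef, Per2, Per3, Nr1d1, Nr1d2, Arntl, Npas2 and Cry1 kept their direction within each library set. Within set A the test passed for 4 genes, Cth, Dbp, Nr1d2 and Osgin1, and within set B for 4, Cth, Arntl, Dtx4 and Osgin1. Dbp had a log2 fold change of 2.09 within set A and 2.50 within set B, and Arntl one of -1.18 and -1.55. Tef was at 1.11 and 1.50, Per2 at 1.12 and 1.82, and Cry1 at -1.10 and -0.77. With the set as a term in EFAT, the adjusted p of Dbp was 0.0515, of Tef 0.141, of Cry1 0.136 and of Osgin1 0.0818, while Arntl and Dtx4 still passed at 7.49e-05 and 0.0176.

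Osgin1, named for its induction by oxidative stress and a target of the NRF2 pathway, had the smallest adjusted p after Cth. It measured 4.21, 4.74, 3.99 and 3.86 CPM in Cth-/- SFAT, against 12.0, 12.8, 12.4 and 11.1 CPM in Cth+/+ SFAT. In EFAT it measured 7.09, 5.99, 7.05 and 6.34 CPM in Cth-/-, against 20.1, 20.3, 16.2 and 15.3 CPM in Cth+/+. The genotypes were far apart in both depots. Osgin1 (chromosome 8, 119434124 to 119446256, plus strand) fell by 1.48 ± 0.08 (adjusted p 3.1e-08). It was the only one of 22 NRF2 targets tested that passed edgeR's test, and the median of the list was -0.05. An unadjusted p under 0.05 was found for 5 of these targets, against 3354 of 17219 over all genes. DESeq2 called 1 higher and 1 lower, against 638 and 537 of 17219. In EFAT alone the adjusted p of Osgin1 of 0.015 was 0.0559 to 0.0895 without Cth+/+ replicate 1 or Cth-/- replicate 13, 14 or 15.

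Dtx4, an E3 ubiquitin ligase of the Deltex family, measured 50.9, 52.1, 46.8 and 50.1 CPM in Cth-/- SFAT, against 140, 125, 132 and 121 CPM in Cth+/+ SFAT. EFAT levels of Dtx4 were 73.9, 49.1, 77.5 and 50.0 CPM in Cth-/-, against 169, 134, 154 and 129 CPM in Cth+/+. No library of one genotype reached the range of the other. Dtx4 (chromosome 19, 12466338 to 12501454, minus strand) fell by 1.30 ± 0.10 (adjusted p 1.8e-06). In EFAT alone its adjusted p of 0.018 was 0.0745 to 0.101 without Cth+/+ replicate 1 or 3 or Cth-/- replicate 13 or 15.

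A further group passed in 1 depot alone. E2f2, a cell cycle transcription factor, measured 3.65, 3.87, 3.83 and 3.95 CPM in Cth-/- SFAT, against 13.2, 9.72, 14.2 and 8.38 CPM in Cth+/+ SFAT. It fell by 1.58 ± 0.24 there (adjusted p 0.012, and 0.0536 to 0.0684 without Cth+/+ replicate 1 or any 1 Cth-/- library). The Cth-/- libraries stood close together and under all Cth+/+ libraries. In EFAT its groups overlapped, with an estimate of -1.10. Of 18 proliferation genes none passed edgeR's test over both depots. All 18 had estimates below 0, against 48.2% of all genes, with a median of -0.72. At an unadjusted p under 0.05 stood 12, and DESeq2 called 1 lower, against 3354 and 537 of 17219 genes.

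Grk5, a kinase of G protein-coupled receptors, averaged 36.9 ± 2.37 CPM in Cth-/- SFAT and 60.7 ± 2.20 CPM in Cth+/+ SFAT, and fell by 0.72 ± 0.11 there (adjusted p 0.014). Pik3r3, a regulatory subunit of PI3 kinase, averaged 14.7 ± 1.50 CPM in Cth-/- SFAT and 21.5 ± 1.74 CPM in Cth+/+ SFAT, and fell by 0.56 ± 0.09 (adjusted p 0.025). Slc5a6, the sodium-dependent carrier of biotin and pantothenate, measured 33.4, 28.2, 42.2 and 40.9 CPM in Cth-/- SFAT, against 19.2, 18.4, 19.3 and 16.9 CPM in Cth+/+ SFAT, and rose by 0.96 ± 0.14 (adjusted p 0.0062). The SFAT call of Slc5a6 held whichever library was left out. That of Grk5 was lost without Cth+/+ replicate 1, 2 or 4 or Cth-/- replicate 13, 14 or 15 (0.0676 to 0.0886), and that of Pik3r3 without Cth+/+ replicate 1, 2 or 4 or Cth-/- replicate 12, 13 or 14 (0.0589 to 0.143).

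Abca1, the exporter of cholesterol to apolipoproteins, measured 504, 630, 544 and 556 CPM in Cth-/- SFAT, against 345, 369, 331 and 348 CPM in Cth+/+ SFAT. It rose by 0.67 ± 0.12 there (adjusted p 0.042), and every fit with 1 library left out gave 0.0589 to 0.168. Gpr160, an orphan receptor, measured 11.9, 14.1, 12.4 and 11.9 CPM in Cth-/- EFAT, against 7.43, 7.62, 7.82 and 8.11 CPM in Cth+/+ EFAT. It rose by 0.69 ± 0.11 in EFAT (adjusted p 0.044, and 0.0938 to 0.243 with any 1 library left out). Neither gene's groups overlapped in the depot named, and over both depots Abca1 rose by 0.52 ± 0.08 and Gpr160 by 0.63. With counts summed by number neither passed (adjusted p 0.0907 for Abca1 and 0.166 for Gpr160).

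**Figure D3:**
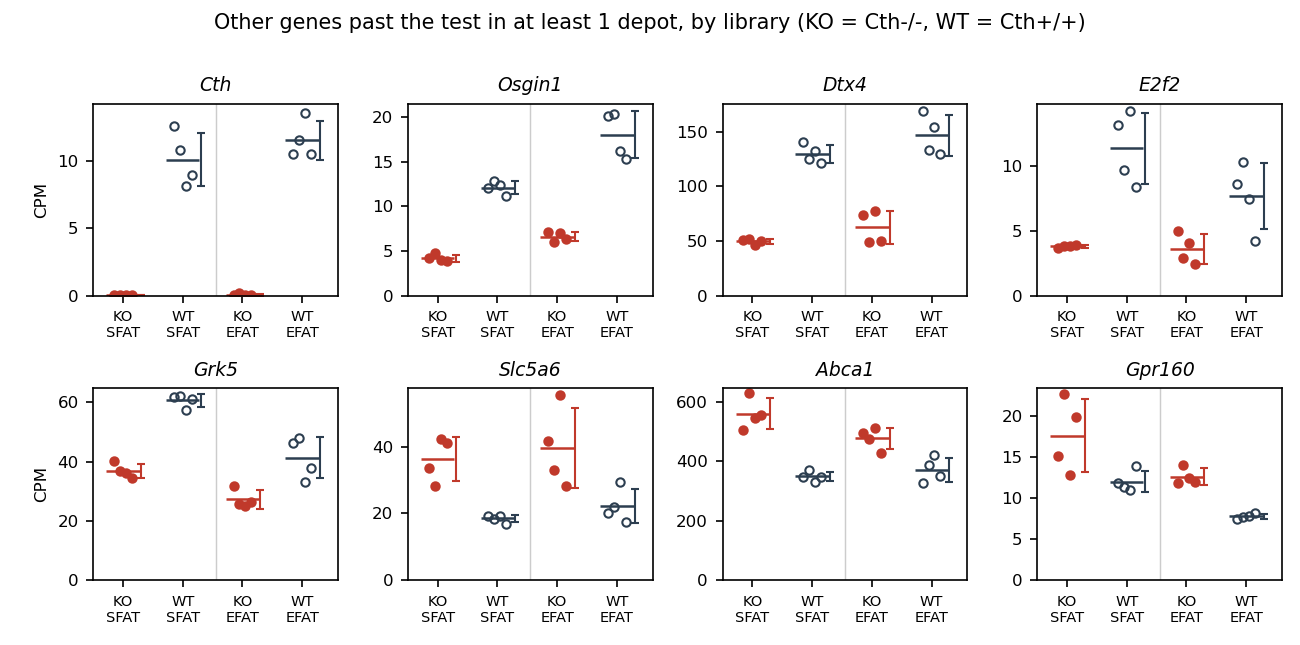
Levels in CPM (linear y axes) of Cth and of 7 genes outside the clock lists that passed in at least 1 depot, by control-diet library of SFAT and EFAT, Cth-/- filled red left of Cth+/+ open dark. Lines are means and bars SD over 4 libraries, and Osgin1, Dtx4, Grk5 and Abca1 separate the genotypes in both depots.

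Genes that respond to glucocorticoids and fasting were partly higher. Of 19 tested, 6 rose (Fkbp5, Zbtb16, Hif3a, Foxo1, Klf9, Foxo3) and 1 fell (Cdkn1a), against 1.33% of all genes called higher and 0.970% called lower, with a list median of 0.30 against 0.01 over all genes. Fkbp5, the co-chaperone that restrains the glucocorticoid receptor, measured 73.3, 74.3, 127 and 45.6 CPM in Cth-/- SFAT, against 30.1, 34.6, 31.6 and 21.2 CPM in Cth+/+ SFAT. In EFAT it measured 77.9, 132, 147 and 112 CPM in Cth-/-, against 54.8, 35.3, 62.7 and 55.1 CPM in Cth+/+. The genotypes did not overlap, although the Cth-/- libraries varied widely. Fkbp5 rose by 1.31 ± 0.19 (adjusted p 0.0024), whichever number was left out, but not with counts summed by number (adjusted p 0.0907).

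Zbtb16, a zinc finger factor also called PLZF, rose by 1.22 ± 0.25 (adjusted p 0.017, and 0.0624 to 0.104 without Cth+/+ replicate 1, 2 or 4). Hif3a, a hypoxia-inducible factor subunit, rose by 1.12 ± 0.22 (adjusted p 0.016, and 0.0608 to 0.0862 without replicate 1, 2 or 13). The FoxO factors, which insulin signalling holds out of the nucleus, rose by 0.50 ± 0.12 (Foxo1) and 0.42 ± 0.09 (Foxo3). Cdkn1a, the cell cycle inhibitor p21, measured 23.5 to 35.0 CPM in Cth-/- SFAT against 48.5 to 65.8 CPM in Cth+/+ SFAT, and fell by 1.05 ± 0.20 over both depots (adjusted p 0.011, and 0.0511 without Cth+/+ replicate 1). Other members of the list stayed short of the threshold, among them Tsc22d3 at 0.30 and Pdk4 at 0.44.

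In the insulin and growth hormone list 2 of 19 genes rose, Irs2 and Stat5b, against 1.33% of all genes. Stat5b, a transcription factor downstream of growth hormone, had an adjusted p of 0.038 that was 0.0991 to 0.174 without Cth+/+ replicate 1, 2 or 4 or Cth-/- replicate 13 or 15, and it passed in 6 of 18 alternative fits. Irs2, an adaptor of the insulin receptor, measured 49.0, 67.6, 57.0 and 159 CPM in Cth-/- SFAT, against 37.4, 36.9, 26.1 and 40.3 CPM in Cth+/+ SFAT. In EFAT it measured 54.7, 114, 80.5 and 141 CPM in Cth-/-, against 46.2, 36.5, 34.2 and 34.4 CPM in Cth+/+. Cth-/- replicate 15 was the highest library in both depots, and the genotypes did not overlap. Irs2 rose by 1.30 ± 0.23 (adjusted p 0.0087), but not with counts summed by number (adjusted p 0.181). Slc2a3, the glucose carrier GLUT3, averaged 8.54 ± 1.98 CPM in Cth-/- SFAT and 3.95 ± 0.282 CPM in Cth+/+ SFAT, and 17.7 ± 4.70 CPM in Cth-/- EFAT against 6.91 ± 1.75 CPM in Cth+/+ EFAT. It rose by 1.24 ± 0.16 (adjusted p 0.0012), but not with counts summed by number (adjusted p 0.0907).

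Sterol synthesis lay lower in Cth-/- fat as a list, with few members past the test. All 24 genes of cholesterol synthesis and uptake tested had estimates below 0, against 48.2% of all genes, and the median was -0.76, but only 3 passed edgeR's test. DESeq2 called 17 of the 24, all lower, against 537 of 17219 genes called lower. The 3 were Sqle (squalene epoxidase, -1.08 ± 0.22), Cyp51 (lanosterol demethylase, -1.08 ± 0.22) and Nsdhl (-0.89 ± 0.22), with adjusted p-values of 0.017, 0.017 and 0.043. Sqle measured 29.5, 13.9, 30.3 and 15.8 CPM in Cth-/- SFAT, against 61.2, 61.4, 37.8 and 43.9 CPM in Cth+/+ SFAT. EFAT levels of Sqle were 37.1, 15.3, 31.7 and 17.0 CPM in Cth-/-, against 56.5, 62.5, 39.4 and 39.7 CPM in Cth+/+. The genotypes did not overlap, and Cth-/- replicates 13 and 15 were the lowest in both depots. The calls of Sqle and Cyp51 were lost without replicate 1, 2, 13 or 15 (0.0655 to 0.101), and that of Nsdhl also without replicate 4 (0.0751 to 0.162).

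Of 19 fatty acid synthesis genes, 16 had estimates below 0, against 48.2% of all genes, with a list median of -0.41. The test called 1 lower, against 0.970% of all genes. That gene was Scd2, a stearoyl-CoA desaturase. It measured 1143, 477, 1110 and 482 CPM in Cth-/- SFAT, against 2577, 2426, 1564 and 2119 CPM in Cth+/+ SFAT. EFAT levels of Scd2 were 1034, 293, 572 and 374 CPM in Cth-/-, against 2214, 2908, 1203 and 1412 CPM in Cth+/+. Cth-/- replicates 13 and 15 were again the lowest, and no Cth-/- library reached a Cth+/+ one. Scd2 fell by 1.60 ± 0.29 (adjusted p 0.0087), whichever number was left out, but not with counts summed by number (adjusted p 0.208). Scd1, the main desaturase of white fat, had an estimate of -0.78 with an adjusted p of 0.061, Elovl6 one of -1.10 with 0.17, and Fasn one of -0.30 with 0.70.

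Few lipid storage and adipocyte genes passed the test. Of 17 lipolysis and lipid droplet genes 2 rose, against 1.33% of all genes. They were Plin4 (a droplet coat protein, 0.48, adjusted p 0.016) and Aqp7 (the glycerol channel, 0.27, adjusted p 0.048). Both were lost without Cth+/+ replicate 1 or 2 or Cth-/- replicate 13 or 15, Plin4 also without Cth+/+ replicate 4, and Aqp7 also without Cth+/+ replicate 3 or Cth-/- replicate 14 (0.052 to 0.183 between them). The triglyceride lipase Pnpla2 had an estimate of 0.08 and Lipe one of 0.25. Adipoq averaged 1988 ± 70.1 CPM in Cth-/- SFAT and 2018 ± 224 CPM in Cth+/+ SFAT, with an estimate of 0.17 over both depots, and Lep one of -0.37. In the triglyceride assembly list 1 of 14 genes rose, against 1.33% of all genes. It was Gpat4, an acyltransferase of glycerol phosphate, which rose by 0.40, with an adjusted p of 0.0516 to 0.0527 without Cth+/+ replicate 1 or 2.

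**Figure D4:**
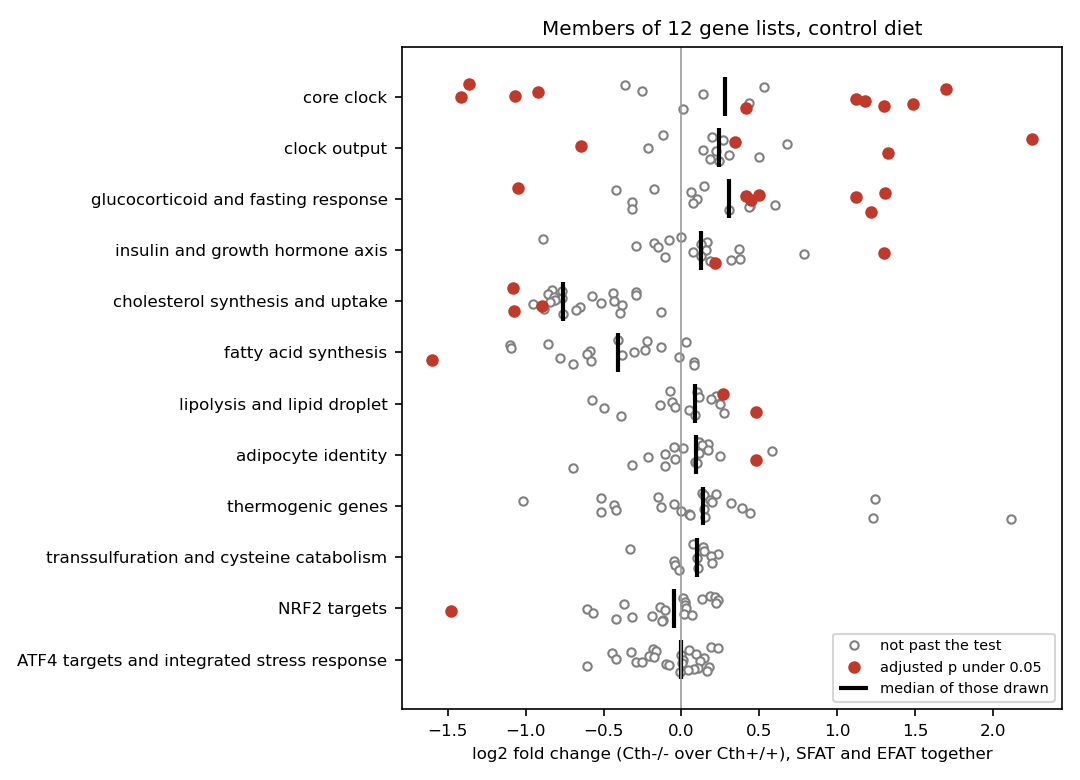
Log2 fold change of Cth-/- over Cth+/+ on the control diet, both depots together, for the tested members of 12 gene lists (1 point a gene, Cth not drawn), with a line at each list's median. The core clock list spreads to both sides of 0, and the cholesterol list lies wholly below it with a median of -0.76.

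Few genes of sulfur amino acid use passed the test. Of 13 transsulfuration and cysteine catabolism genes tested, Cth was the only one past edgeR's test, and the list median was 0.10. An unadjusted p under 0.05 was found for 2 of them, against 3354 of 17219 over all genes. DESeq2 called 1 higher and 1 lower, against 638 and 537 of 17219. Cbs, the enzyme before Cth, had an estimate of 0.14. Cdo1, which oxidises cysteine, had one of -0.33, and Csad, the next enzyme towards taurine, one of 0.15. Cdo1 measured 1535, 700, 1561 and 907 CPM in Cth-/- SFAT, against 1538 to 1648 CPM in Cth+/+ SFAT. Its EFAT levels were 2270, 1120, 2342 and 1026 CPM in Cth-/-, against 1702 to 2369 CPM in Cth+/+. In the methionine cycle list 1 of 12 genes rose, against 1.33% of all genes. That gene, Mtr (methionine synthase), averaged 24.7 ± 3.10 CPM in Cth-/- SFAT and 18.0 ± 0.678 CPM in Cth+/+ SFAT. It rose by 0.42 ± 0.08 over both depots (adjusted p 0.0099, and 0.0509 without Cth-/- replicate 15).

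None of 15 glutathione synthesis and breakdown genes, 25 glutathione transferases and peroxidases, 16 cystine and amino acid transporters or 27 ATF4 targets passed edgeR's test. At an unadjusted p under 0.05 stood 2, 7, 2 and 5 genes of these lists in that order, against 3354 of 17219 over all genes. DESeq2 called 1, 4, 1 and 1, against 1175 of 17219. Slc7a11, the cystine importer, had an estimate of 0.02, Gclc, the first enzyme of glutathione synthesis, one of 0.03, and Asns, a standard ATF4 target, one of -0.18. Fgf21 and Gdf15, hormones released under cellular stress, had estimates of -0.42 and 0.01. Of 18 unfolded protein response genes 7 had an unadjusted p under 0.05 and DESeq2 called 5 higher, against 638 of 17219 genes called higher. By edgeR's test 2 rose, against 1.33% of all genes. They were Herpud1 and Pdia4, a disulfide isomerase of the endoplasmic reticulum, at 0.29 with an adjusted p of 0.016 that was 0.059 to 0.0937 without Cth+/+ replicate 1, 2 or 4 or Cth-/- replicate 13.

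Of 21 heat shock and immediate early genes 1 fell, against 0.970% of all genes. It was Hspa8, a constitutive chaperone with close copies in the genome, which fell by 0.58 ± 0.10 (adjusted p 0.0082, and 0.0509 without Cth+/+ replicate 2). Hspa8 alone measured 893 to 980 CPM in Cth-/- EFAT against 1364 to 1641 CPM in Cth+/+ EFAT. The 21 genes summed to 1850 to 2070 CPM in Cth-/- EFAT against 2410 to 2800 CPM in Cth+/+ EFAT, so Hspa8 makes up most of the gap, and the list median was -0.04.

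No thermogenic gene passed edgeR's test (0 of 24, median 0.14, with 3 at an unadjusted p under 0.05), and DESeq2 called 0. Ucp1, the uncoupling protein of brown and beige fat, measured 66.1, 180, 39.2 and 140 CPM in Cth-/- SFAT, against 27.9, 9.30, 2.03 and 72.1 CPM in Cth+/+ SFAT. The groups overlapped and each spread over several-fold, and the estimate of 2.12 ± 0.79 over both depots had an adjusted p of 0.16. In EFAT Ucp1 was too low to be tested, at 0.0293, 0.223, 0.0274 and 3.70 CPM in Cth-/-, against 0, 0.0887, 0.243 and 0.0394 CPM in Cth+/+. Dio2, which activates thyroid hormone, had an estimate of -1.02 ± 0.51 with an adjusted p of 0.28. It measured 0.764 to 3.87 CPM in Cth-/- EFAT, against 5.08 to 15.5 CPM in Cth+/+ EFAT. In SFAT the groups overlapped, with 2.26 to 8.62 CPM in Cth-/- and 2.38 to 6.02 CPM in Cth+/+. None of 47 oxidative phosphorylation genes or 25 fatty acid oxidation genes passed edgeR's test, with 11 and 1 at an unadjusted p under 0.05 and 1 and 1 called by DESeq2. Over all 17219 genes, 3354 had an unadjusted p under 0.05 and DESeq2 called 1175. All 47 oxidative phosphorylation genes had estimates below 0, against 48.2% of all genes, with a median of -0.16. In SFAT alone 47 of 47 lay below 0, and in EFAT alone 37. The 13 mitochondrially encoded genes had a median of -0.46, and their summed level was 51000 to 63300 CPM in Cth-/- EFAT against 59700 to 116000 CPM in Cth+/+ EFAT, with none past edgeR's test, 6 at an unadjusted p under 0.05 and 0 called by DESeq2. Their share of the reads in EFAT went with the library set: 5.79 to 6.46% in set A (3 Cth-/- libraries and 1 Cth+/+) and 7.13 to 11.5% in set B (1 Cth-/- library and 3 Cth+/+). The part of the set in these lists was not tested.

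Markers of other cell types moved in places. All 17 macrophage markers had estimates above 0, while 48.2% of all genes lay below 0. Their median was 0.41 over both depots (0.61 in SFAT, 0.23 in EFAT). An unadjusted p under 0.05 was found for 12, against 3354 of 17219 genes. DESeq2 called 3 higher, against 638 of 17219 genes. By edgeR's test 1 rose, against 1.33% of all genes: Cd163, a scavenger receptor of resident macrophages. Cd163 averaged 205 ± 50.4 CPM in Cth-/- SFAT and 136 ± 9.62 CPM in Cth+/+ SFAT, and 87.9 ± 13.9 CPM in Cth-/- EFAT against 57.6 ± 10.4 CPM in Cth+/+ EFAT, a rise of 0.60 ± 0.12 (adjusted p 0.014, and 0.0569 to 0.0782 without replicate 1, 4 or 13). The whole list summed to 1500 to 4350 CPM in Cth-/- SFAT against 1500 to 2050 CPM in Cth+/+ SFAT, and to 1300 to 1490 CPM in Cth-/- EFAT against 1100 to 1330 CPM in Cth+/+ EFAT, with no marker at 0 in all libraries.

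Blood markers summed to 636 to 1040 CPM in Cth-/- EFAT, against 889 to 1550 CPM in Cth+/+ EFAT. Of the 8, 7 had estimates below 0, against 48.2% of all genes. An unadjusted p under 0.05 was found for 5, and DESeq2 called 3 lower, against 3354 and 537 of 17219 genes. By edgeR's test 1 fell, against 0.970% of all genes. It was the globin gene Hbb-bs with its near-identical copies, which fell by 0.71 ± 0.14 (adjusted p 0.014, and 0.0534 to 0.0655 without Cth+/+ replicate 2 or 4 or Cth-/- replicate 13). Skeletal muscle markers summed to 53 to 777 CPM in Cth-/- SFAT and 62 to 624 CPM in Cth+/+ SFAT. Epididymis and epithelial markers summed to 27.9 to 217 CPM in Cth-/- EFAT and 30 to 189 CPM in Cth+/+ EFAT. No muscle or epididymis marker passed edgeR's test, had an unadjusted p under 0.05 or was called by DESeq2, and these sums overlapped between the genotypes. Among 14 B cell and lymph node markers none passed edgeR's test, 4 had an unadjusted p under 0.05 and DESeq2 called 0, with a list median of 1.01. In SFAT alone their median log2 fold change was 2.05, with 2 estimates below 0 and 7 at an unadjusted p under 0.05, against 1825 of 16555 genes. Their summed level in SFAT overlapped, at 378 to 1020 CPM in Cth-/- (median 540) and 601 to 701 CPM in Cth+/+ (median 648). In EFAT alone the median log2 fold change was 0.14, with 0 at an unadjusted p under 0.05 and 5 estimates below 0. The part of any of these cell types in the other results was not tested.

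Tlcd2 and Prune2 separated the libraries of the genotypes in both depots. Tlcd2, a membrane protein of the TLC domain family, measured 6.33 to 11.5 CPM in Cth-/- SFAT against 17.8 to 44.5 CPM in Cth+/+ SFAT, and fell by 1.73 ± 0.30 over both depots (adjusted p 0.0078). Prune2 fell by 1.15 ± 0.19 (adjusted p 0.0067), with 26.5 to 37.1 CPM in Cth-/- SFAT against 50.7 to 93.1 CPM in Cth+/+ SFAT. Both kept their call whichever number was left out, but not with counts summed by number (adjusted p 0.19 for Tlcd2 and 0.0643 for Prune2).

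Genes near Cth were counted apart. Within 20 Mb of Cth, 6 of 102 genes passed (5.88%), against 22 of 808 on the rest of chromosome 3 (2.72%) and 367 of 16308 on other chromosomes (2.25%). They were Unc5c (1.46, at -16.26 Mb from Cth), Ttll7 (0.51), Adgrl2 (-0.52), St6galnac5 (1.00), Negr1 (0.32) and Gm43314 (-4.04). Gm43314 lies inside Cth, so its reads and those of Cth cannot be told apart with certainty. Ttll7, St6galnac5 and Negr1 each kept their call in only 1 of 8 fits with a number left out (0.0507 to 0.179 in the fits that lost it), and Unc5c was lost without replicate 1, 2, 3, 13 or 15 (0.0555 to 0.138). None of the clock genes that passed lies within that window.

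The same genotype contrast was made in the other libraries. On the cystine-free diet it called far more genes, 37.5% in SFAT and 39.7% in EFAT, and in BAT on the control diet 2.10%. The BAT libraries on the control diet carry the same numbers as the white ones, and the labels do not say whether they come from the same mice. Of the 396 genes, 376 were tested in BAT and 318 had the same direction there (84.6%, against 62.3% of all 14275 genes tested in both), and 42 passed in BAT too, all in the same direction (10.6% of the 396 and 13.8% of the BAT genes). On the cystine-free diet 246 of the 396 also passed in SFAT, 219 of them in the same direction, and 253 passed in EFAT, 243 in the same direction.

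On the cystine-free diet Dbp was 2.38 higher in SFAT and 1.96 higher in EFAT on the log2 scale, and 2.58 higher in BAT on the control diet. Arntl was at -1.91, -1.79 and -1.28 in the same libraries, Nr1d2 at 1.09, 1.39 and 1.08, and Per3 at 1.49, 1.13 and 1.28. On the control diet Arntl was at -1.30 in SFAT and -1.44 in EFAT, and Per3 at 1.30 and 1.28. Tef, Per2, Nr1d1, Dtx4 and Osgin1 also passed with the same sign in all 3 of these contrasts. Scd2 was lower by more on the cystine-free diet, at -3.23 in SFAT and -3.15 in EFAT.

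Cry1 was the exception among the 7 genes shared by the depots. Without dietary cystine its log2 fold change was 0.22 ± 0.17 in SFAT and -0.16 ± 0.13 in EFAT, and neither passed, while in BAT on the control diet it fell by 1.22 ± 0.13. The genotype effect with the control diet minus that without cystine, a test chosen after the values were seen, was -1.20 ± 0.24 in SFAT (adjusted p 0.0031) and -0.73 ± 0.19 in EFAT (adjusted p 0.029). That test called 21.7% of genes in SFAT and 10.4% in EFAT. For Npas2 the difference was -1.29 ± 0.38 in EFAT (adjusted p 0.042), where the cystine-free value was 0.07 ± 0.27, and 0.08 in SFAT (adjusted p 0.89).

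For Dtx4 the difference in SFAT was 0.60 ± 0.19 (adjusted p 0.032), where it fell by 1.39 on the control diet and by 1.99 without cystine. For Slc5a6 it was -1.15 in SFAT (adjusted p 0.0012), with rises of 0.96 on the control diet and 2.11 without cystine. Lypd1, a GPI-anchored protein of the Ly6 family, had opposite signs in SFAT: 1.26 with the control diet, which did not pass there, and -1.73 without cystine. The difference for Lypd1 was 2.99 ± 0.53 (adjusted p 0.0015). Its rise over both control-diet depots of 1.37 (adjusted p 0.04) was 0.0546 to 0.165 without any 1 of replicates 1, 2, 3, 4, 13 and 15. For Dbp, Tef, Per2, Per3, Nr1d1 and Nr1d2 this test passed in neither depot, with differences of -0.56 to 0.51. Nor did it pass for Arntl, with 0.61 ± 0.24 in SFAT (adjusted p 0.085) and 0.35 ± 0.15 in EFAT (adjusted p 0.14). A test that does not pass does not show that the diets act alike.

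**Figure D5:**
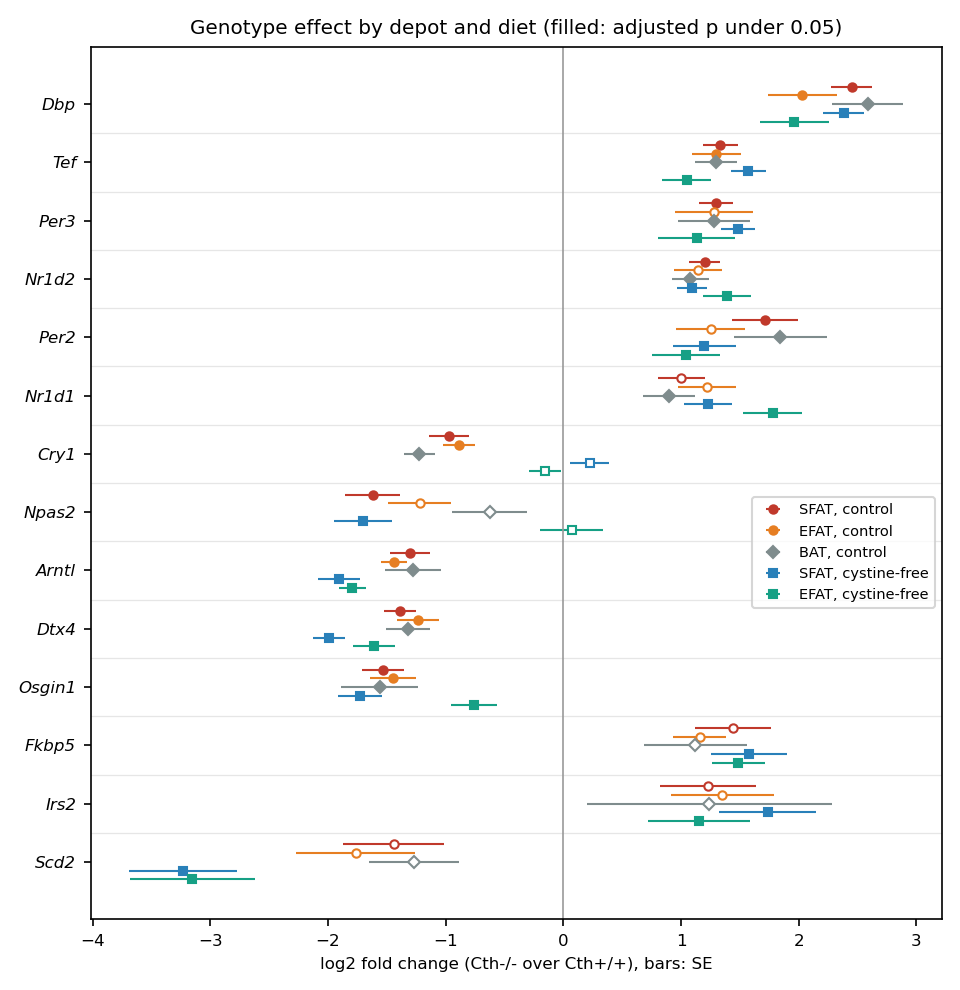
Log2 fold change of Cth-/- over Cth+/+ (bars SE) for 14 genes in 5 contrasts: SFAT, EFAT and BAT on the control diet, SFAT and EFAT on the cystine-free diet. Filled points passed at an adjusted p under 0.05, and Cry1 is lower in the 3 control-diet contrasts and near 0 in the 2 cystine-free ones.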

How the data were processed

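The authors deposited 1 table of unscaled expected counts for 47729 genes. The submitters' processing notes name RSEM, STAR, Picard and FastQC and the build mm10. Tool versions and the gene annotation they used: not given in the sources used here. Libraries were made from poly(A) RNA of snap-frozen fat, per the labels.

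Expected counts were rounded to whole numbers. The control-diet white libraries were fitted with depot and genotype as terms, and each depot apart within its 16 libraries in 4 groups (genotype by diet). The tool was edgeR 4.0.16 (R 4.3.3) with TMM scaling, filterByExpr (minimum count 10, minimum total 15) and two-sided quasi-likelihood F-tests with Benjamini-Hochberg adjustment over all genes tested. CPM uses TMM-scaled totals of the 16 libraries. DESeq2 1.42.0 and limma 3.58.1 (voom, replicate number as a block) were alternatives. Library set B held at least 0.1 CPM of the pseudogene Gm43512. Coordinates are GENCODE M21 (GRCm38), in which 47310 gene IDs matched without the version suffix.

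Scripts were tested on simulated data. Genes named were Cth, all genes passing in a depot, the 15 largest rises and falls over both depots (mean of at least 1 CPM, predicted genes left out), passing genes within 20 Mb of Cth, clock and transsulfuration genes, up to 4 passing members of other lists, and a few standard adipocyte genes. Other genes given as examples from lists, Sema6d, Foxo3 and genes called by DESeq2 alone were picked with their values in view. The comparison, its members and the 39 gene lists were chosen with earlier results of these data known. Some genes that this rule names are left out of the text.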

Additional observations from a re-analysis of the deposited data

Results flagged for a closer look

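Each entry is 1 library that stood apart from the other 3 of its group, by Dixon's 95% criterion on the CPM of 41 named genes in 4 groups. Of 164 groups examined 11 stood out, and chance marks about 1 in 20. Within Cth-/- SFAT, Cth was at 0.07995 CPM in replicate 12, against 0.03015 to 0.03327 CPM in the others, which is 3 reads against 1 each. Gm43314, which overlaps Cth, was at 0.02665 CPM in the same library and 0 in the others. Nfil3 was at 7.809 CPM in replicate 12 (others 6.554 to 6.702), Irs2 at 158.6 CPM in replicate 15 (others 48.96 to 67.61) and Hspa8 at 1033 CPM in replicate 13 (others 765.9 to 774.1).

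Within Cth-/- EFAT, Slc2a3 was at 10.67 CPM in replicate 12 (others 19.67 to 20.57), Zbtb16 at 191 CPM in replicate 14 (others 91.37 to 107), Cry1 at 6.009 CPM in replicate 14 (others 7.123 to 7.284) and Ucp1 at 3.703 CPM in replicate 15 (others 0.02744 to 0.2229). Within Cth+/+ libraries, Rora was at 89.09 CPM in EFAT replicate 4 (others 71.46 to 74.35) and Cdkn1a at 65.83 CPM in SFAT replicate 3 (others 48.52 to 50.6). For Nfil3 in SFAT, and for Cry1 and Slc2a3 in EFAT, all 4 Cth-/- libraries still lay on 1 side of all 4 Cth+/+ libraries.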

How the results depend on the processing

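Over both depots 396 genes passed. DESeq2 called 1175, all 32 white libraries in 8 groups 262, voom with the replicate number as a block 152, and counts summed by replicate number 11. Fits within library sets A and B, added after the data were seen, called 4 and 4, and with replicate numbers left out in turn the count ran from 105 to 583. In SFAT DESeq2 called 101 genes against 17, and 11 to 17 passed with 1 library left out. In EFAT DESeq2 called 37 against 8, the library set as a term 3, only the 8 control-diet libraries 3, and 2 to 6 passed with 1 library left out. For the difference between depots DESeq2 called 2, and the replicate block and every fit with a number left out called 0.

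RLE scaling, no low-count filter and robust dispersion kept these counts within 1.5 times (417, 265 and 390 over both depots). Of 1620 values of single named genes under alternatives, 1138 kept direction and call, 469 kept direction without passing, and 13 changed sign, all of Gdf15 and Slc7a11, which pass in no fit. Gdf15, at 0.01, was at -0.0898 with the library set as a term, -0.31 and -0.0542 with the replicate block by voom and by summed counts, -0.42 within set B, and -0.46 to 0.26 with a number left out. Slc7a11, at 0.02, was at -0.40 within set A and -0.23 to 0.18 with a number left out. Same-numbered SFAT and EFAT libraries correlated at -0.0616 to 0.253 in their deviations, above 0.1 in 4 of 8 numbers, and 4 of 8 correlated best with their own number. Voom's estimated correlation within a number was 0.21. SFAT, EFAT and BAT use the same numbers and skip the same ones, but the labels do not tie a number to 1 mouse. The main fit therefore does not use the numbers. If they do pair the libraries, the 396 calls treat 2 libraries of 1 mouse as independent, which the fit with summed counts does not. The 11 genes left with counts summed by number (4 samples a genotype) were Cth, Arntl, Dbp, Osgin1, Tef, Dtx4, Cry1, Nr1d2, Sema6d, Per2 and Per3, while Nr1d1 (adjusted p 0.122), Npas2 (0.0907), Fkbp5 (0.0907), Irs2 (0.181), Slc2a3 (0.0907) and Scd2 (0.208) lost their call. The cause of the changes in count was not tested. With 4 libraries a group, calls near 0.05 in 1 depot rest on single libraries, and values under 1 CPM rest on few reads.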
